A study of Mus musculus with 18 samples.

Results

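The replication-dependent histone genes sit in clusters and code for the linker histone H1 and the core histones H2A, H2B, H3 and H4. They were followed here across 6 groups of mouse bone marrow-derived macrophages. A gene was taken as a member when its symbol began with Hist1, Hist2, Hist3 or Hist4 and its row held more than 20 counts in all libraries of a count table. Of the 62 symbols with these prefixes among the 23052 of each table, 27 were members in the endotoxin-tolerant table and 19 in the stimulation table. Taken over both tables there were 28 members, 18 of them shared.

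The macrophages came from C57BL6/J wild-type mice and were grown for 7 days in DMEM with serum and 20% L929-conditioned medium, a source of the growth factor M-CSF. In the first table, endotoxin-tolerant macrophages were cultured without glutamine but with alpha-ketoglutarate (AKG), without glutamine, or with glutamine, with 4 libraries in each group. AKG is the carbon skeleton of glutamate and a co-substrate of many histone demethylases. In the second table, macrophages had been stimulated with IL-4 or with lipopolysaccharide (LPS) for 6 h, or left as controls, with 2 libraries in each group. All 3 tolerant groups share the tolerised state, so the first table holds no untreated macrophages. The labels give neither the doses of LPS, IL-4 and AKG nor the timing of tolerance. The labels do not say that replicates were separate mice or cultures, so p-values measure the spread between these libraries, which may be technical.

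Replication-dependent histone mRNAs are made mostly in S phase, when new DNA has to be packed, and they differ from other mRNAs in their 3′ end. They are cut just after a conserved stem-loop that is bound by SLBP, and they carry no poly-A tail. Several cluster genes can also be read through to a downstream poly-A signal, which gives polyadenylated histone mRNA, as has been described in differentiated cells. Libraries made by poly-A selection see mainly that second form. The libraries here were made from total RNA with a stranded TruSeq kit, and the sources used here do not say whether poly-A RNA was selected or ribosomal RNA depleted.

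Library totals were 28302158 to 37834680 counts in the tolerant table and 34227368 to 39760356 counts in the stimulation table. TMM scaling factors lay between 0.957 and 1.03 in the tolerant table, at 0.791 and 0.822 in the LPS libraries and between 1.09 and 1.13 in the IL-4 and control libraries. Tolerant libraries with the same replicate number deviated together, and replicates 1 and 2 stood apart from replicates 3 and 4 in several members. What a number marks is not explained in the labels. Levels are given in CPM, which are counts scaled to a common library size after TMM, and calls as a Benjamini-Hochberg adjusted p under 0.05 in edgeR's quasi-likelihood test over all genes kept. In bulk RNA, fewer cells of a kind and less RNA per cell cannot be told apart.

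The stem-loop was searched after the coding sequence in the annotated transcripts of the 62 genes. Its distance from the annotated 3′ end shows how far each gene model extends beyond the processed end. The pseudogene Hist3h2bb-ps, which has no coding sequence, was not searched and counts as a row without a match. A gene model that ends at or just after its coding sequence leaves no room for a match and counts likewise. The pattern was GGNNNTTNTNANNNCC on the transcript's own strand. Anywhere in their length, 2.69% of 141767 GENCODE vM21 transcripts hold it, which is a wider search than that of the members. It was found in 22 of 28 members, and 15 of these held the same 16 bases, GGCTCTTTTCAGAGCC. The sites below belong to members whose values are described later. They are given 5′ to 3′ in GRCm38 (mm10) coordinates, with the 16 bases of the stem-loop in capitals and 5 bases on each side.
Hist1h1c, chr13:23739507-23739532, plus strand: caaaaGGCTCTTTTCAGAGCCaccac
Hist1h1d, chr13:23555782-23555807, plus strand: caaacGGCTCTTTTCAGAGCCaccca
Hist3h2a, chr11:58955167-58955192, plus strand: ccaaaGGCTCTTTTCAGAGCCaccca
Hist1h2ad, chr13:23574890-23574915, plus strand: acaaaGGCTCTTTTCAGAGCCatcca
Hist2h3c2, chr3:96238480-96238505, minus strand: acaaaGGCTCTTTTCAGAGCCaccac
Hist1h4i, chr13:22040961-22040986, minus strand: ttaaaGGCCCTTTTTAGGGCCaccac
All but the Hist1h4i site carry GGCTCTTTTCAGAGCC. The annotated transcript ran on past the stem-loop by 840 bases in Hist1h1c, 4884 bases in Hist1h1d, 1643 bases in Hist3h2a, 377 bases in Hist2h3c2, 330 bases in Hist1h4i and 42 bases in Hist1h2ad. No match was found in the annotated transcripts of Hist1h2bc and Hist2h2be. This says only that these letters do not follow the coding sequence in those gene models.

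Few counts fell on genes whose annotation ends close to the stem-loop. The 21 rows with more than 100 annotated bases after it held 65.0% of the tolerant counts of all 62 rows, with a median row total of 93 counts. The 22 rows that end within 100 bases of it held 0.401%, with a median of 4 counts, and their largest row total was 107. The 19 rows without a match held 34.6%, nearly all of it in Hist1h2bc and Hist2h2be, with a median of 7 counts. The annotated transcripts of these rows were 312 to 2620 bases long, so this class mixes short and long gene models. Hist1h1c alone held 44378 tolerant counts, and without it the shares were 28.4%, 0.822% and 70.8% in the same order. In the stimulation table the shares were 75.8%, 0.398% and 23.8%, with medians of 35, 2.5 and 1 counts, and without Hist1h1c they were 24.3%, 1.25% and 74.5%. The poly-A signal AATAAA stood in the last 40 bases of the annotated transcript in 8 members and in 3 of the 34 other rows, against 39.3% of 58797 coding transcripts. The totals were not adjusted for transcript length, and a longer annotation can collect more reads. Reads of near-identical histone genes could also be split or lost in counting. These are descriptions of the gene models, and which 3′ ends the counted RNAs had was not tested.

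**Figure D1:**
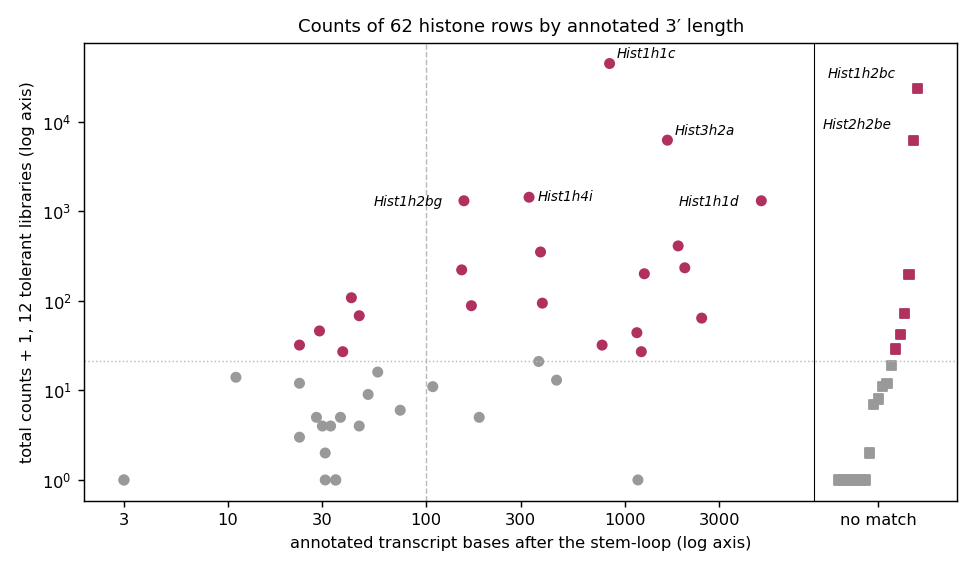
Total counts plus 1 over the 12 tolerant libraries (log axis) of each of the 62 histone rows, against the annotated transcript bases after the stem-loop (log axis). Rows without a match stand at the right, ordered by count. Coloured symbols are members of the tolerant table, grey symbols are rows at or under 20 counts, the dashed line marks 100 bases and the dotted line the count threshold. Most rows with abundant counts lie right of the dashed line or among the rows without a match.

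Other transcripts that usually lack a poly-A tail differed widely in level in the same libraries. The nuclear RNAs Malat1 and Neat1 have 3′ ends or isoforms that lack a usual tail. They averaged 908 and 490.1 CPM in tolerant macrophages without glutamine, against 1147 and 528 CPM with glutamine. Malat1 libraries overlapped, at 387 to 1247 CPM without glutamine against 595 to 1601 CPM with glutamine. Replicates 1 and 2 were above 3 and 4 in both groups. With glutamine, Malat1 had 1601 and 1562 CPM in replicates 1 and 2, against 595 and 829 CPM in replicates 3 and 4. Neat1 had 673 and 626 CPM against 393 and 422 CPM there. None of the 3 RNAs of this list that were tested was called without the block. Rn7sk, the RNA that holds the elongation factor P-TEFb inactive, averaged 0.421 CPM without glutamine against 0.906 CPM with glutamine (adjusted p = 0.43, or 0.015 with the block), and Rmrp and Rny3 were at 0 in both of these groups. How library selection shaped the members' levels was not tested.

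The threshold of 20 counts fell in a continuous run of rows. In the tolerant table Hist1h3e had 20 counts, Hist1h2ai 18 and Hist2h2ac 15 just below it, and Hist1h2bh and Hist1h2bp 26 and Hist1h2bn 28 just above it. In the stimulation table Hist3h2bb-ps had 19 counts, Hist1h1b 17 and Hist4h4 15 below it, and Hist2h2ac 22 and Hist1h1e and Hist1h4d 23 above it. The test's filter on low counts kept 14 of 27 members in the tolerant table and 13 of 19 in the stimulation table. The 13 tolerant members left out had totals of 26 to 93 counts over 12 libraries, and the 6 stimulation members left out had 22 to 35 counts over 6 libraries, and they were not tested with the filter. In the stimulation table Hist1h4d had 0 and 1 counts after LPS, against 10 and 5 in controls. Hist1h1e had 0 and 1 counts after LPS, against 8 and 4 in controls. Both were named after their values were seen. Hist2h2ac had 1 and 1 counts after LPS, against 6 and 4 in controls. The rest overlapped in CPM: Hist1h4k had 4 and 3 counts after LPS against 5 and 6 in controls. Hist1h4h had 4 and 3 against 3 and 11, and Hist3h2ba 4 and 5 against 8 and 5. By class, the tolerant members were 4 H1, 4 H2A, 11 H2B, 1 H3 and 7 H4 genes. GENCODE places 20 of the 28 members on chromosome 13, 4 on chromosome 3, 3 on chromosome 11 and 1 on chromosome 6.

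The histone signal rested on a few genes. Hist1h1c (chr13:23738808-23740367, plus strand), which codes for linker histone H1.2, took 51.3% of all member counts in the tolerant table and 68.4% in the stimulation table. Hist1h2bc (chr13:23684199-23692908, plus strand), an H2B gene, took 27.0% and 19.0%. Per kilobase of exon, Hist1h1c averaged 71.0 CPM in the tolerant libraries, ahead of Hist1h2bc at 49.7, the H2A gene Hist3h2a at 7.12, the H2B genes Hist2h2be at 5.87 and Hist1h2bg at 5.22, and the H4 gene Hist1h4i at 4.84 CPM per kilobase. The next, Hist1h4k, was at 1.53 CPM per kilobase. The same 6 genes led in the stimulation table in the same order, with 65.5 CPM per kilobase for Hist1h1c, 26 for Hist1h2bc and 2.17 for Hist1h4i. The 3 genes from Hist3h2a to Hist1h2bg lay within 2.49 to 2.73 CPM per kilobase there, so their order is not firm.

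The linker histone members carried the H1 box at similar distances from their start. RefSeq promoters (GRCm38.p6, the 250 bases before each gene's start) were available for 24 of the 28 members. The H1 box AAACACA, searched on both strands, lay in 4 of these 24 (16.7%), against 6.25% of 32851 promoters. The 4 were the H1 genes Hist1h1b, Hist1h1c, Hist1h1d and Hist1h1e, with the box between positions -122 and -112 from the start. Of all 56 cluster promoters at hand 9 held it, among them non-members of the H2A and H2B classes, and the linker histone gene Hist1h1a did not. CCAAT was present in 75% of the members' promoters against 33.8% of all promoters, TATAAA in 58.3% against 12.4%, and the octamer ATTTGCAT in 20.8% against 1.6%. The promoters of both H1 genes with enough counts for a test are shown, because they head the comparisons that follow. They are read 5′ to 3′ on the plus strand at chr13:23738557-23738806 (Hist1h1c) and chr13:23554782-23555031 (Hist1h1d), with the H1, CCAAT and TATA boxes on either strand in capitals.
Hist1h1c: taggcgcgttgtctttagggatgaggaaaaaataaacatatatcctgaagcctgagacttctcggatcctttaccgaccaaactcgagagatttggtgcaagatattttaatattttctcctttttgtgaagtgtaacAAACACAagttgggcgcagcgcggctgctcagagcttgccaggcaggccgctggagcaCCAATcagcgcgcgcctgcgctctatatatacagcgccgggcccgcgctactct
Hist1h1d: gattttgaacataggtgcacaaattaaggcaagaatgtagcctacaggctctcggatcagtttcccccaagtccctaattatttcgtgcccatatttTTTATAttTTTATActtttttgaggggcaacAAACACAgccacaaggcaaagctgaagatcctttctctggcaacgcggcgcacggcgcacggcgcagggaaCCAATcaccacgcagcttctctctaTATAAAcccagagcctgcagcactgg
None of the capitalised matches overlaps another. The RefSeq start of Hist1h1d lies 1770 bases inside the GENCODE gene model. A match of letters is a description and not a measured site. No promoter was at hand for Hist1h2bc or Hist2h2be.

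Tolerant macrophages without glutamine held more histone cluster RNA than those with glutamine. The 27 members summed to 228, 257, 288 and 267 CPM without glutamine, against 179, 195, 161 and 160.5 CPM with glutamine, a ratio of mean sums of 1.5. The 4 libraries without glutamine all lay above the 4 with it. Without Hist1h1c the sums were 97.0 to 129 CPM without glutamine, against 83.7 to 97.4 CPM with glutamine, a ratio of 1.28. These sums overlapped slightly, since replicate 1 without glutamine (97.0 CPM) lay below replicate 2 with glutamine (97.4 CPM). The linker histones Hist1h1c and Hist1h1d and the H2B gene Hist2h2be rose, and no member fell. These 3 are 21.4% of the 14 members tested, against 2.31% of the 12492 genes tested that were called higher and 4.78% called in either direction. Of the 14, 11 had a positive log2 fold change, and the median was 0.45, against -0.01 over all genes. In 6 members (42.9%) the CPM of the groups did not overlap, against 12.4% of all genes. With the replicate number as a block, 7 members were higher and none lower, or 50.0% of those tested, against 8.73% of all genes called higher and 21.8% in either direction.

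Among the linker histones, Hist1h1c had 131, 153, 158 and 139 CPM in replicates 1 to 4 without glutamine, against 91.9, 97.4, 71.4 and 76.8 CPM with glutamine. Every library without glutamine was above every library with it. The log2 fold change was 0.78 (SE 0.12, adjusted p = 0.0075). Hist1h1d (chr13:23553262-23560686, plus strand), which codes for H1.3, had 5.59, 6.89, 3.59 and 5.19 CPM without glutamine, against 2.49, 2.54, 1.99 and 2.35 CPM with glutamine. These groups did not overlap either, and the replicate 3 library without glutamine was the lowest of its group. The log2 fold change was 1.18 (SE 0.25, adjusted p = 0.022). The call on Hist1h1d was lost without replicate 1 (adjusted p = 0.055) or 2 (0.072) of the group lacking glutamine, and without replicate 3 (0.064) or 4 (0.065) of the group with glutamine. The other H1 members, Hist1h1b and Hist1h1e, had 34 and 17 counts over 4 libraries without glutamine, against 15 and 12 counts with glutamine, and were not tested; they were named after their values were seen. Hist1h1e overlaps Hist1h2be on the same strand, so their reads may be shared out uncertainly.

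Among the H2B genes, Hist2h2be (chr3:96221119-96223738, plus strand) had 15.6, 16.9, 21.1 and 20.2 CPM without glutamine, against 13.1, 12.5, 12.8 and 11.7 CPM with glutamine. The groups did not overlap, and the log2 fold change was 0.56 (SE 0.10, adjusted p = 0.011). With these groups fitted alone its adjusted p was 0.052. Hist1h2bc had 48.8, 51.1, 75.7 and 73.7 CPM without glutamine, against 41.8, 49.7, 54.5 and 48.4 CPM with glutamine. Its groups overlapped, with replicates 3 and 4 without glutamine well above the rest. The log2 fold change was 0.36 with an adjusted p of 0.36, and 0.33 with an adjusted p of 0.033 under the replicate block. Hist1h2be had 1.3, 0.868, 1.14 and 1.5 CPM without glutamine, against 0.934, 0.763, 0.774 and 0.851 CPM with glutamine, which is 0.53 on the log2 scale (adjusted p = 0.16, and just under 0.05 with the block). Hist1h2bg (chr13:23571396-23572013, plus strand) had 3.25, 3.74, 3.50 and 4.44 CPM without glutamine, against 3.21, 3.24, 2.27 and 3.12 CPM with glutamine. All 4 of its libraries without glutamine were the higher ones, yet it was not called with or without the block.

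Low-count members of the H2A and H3 classes passed only with the replicate block. Hist2h3c2, the H3 member, had 1.24, 0.779, 1.44 and 1.13 CPM without glutamine, against 0.623, 0.600, 0.636 and 0.387 CPM with glutamine. Its groups did not overlap, and the log2 fold change was 1.03 with an adjusted p of 0.093, or 0.018 with the block. Hist1h2ad, an H2A gene, had 0.134, 0.210, 0.457 and 0.649 CPM without glutamine, against 0.0934, 0.0818, 0.221 and 0.258 CPM with glutamine. In both groups replicates 3 and 4 were above replicates 1 and 2, and within each replicate number the library without glutamine was the higher. Its adjusted p was 0.37, or 0.018 with the block, for log2 fold changes of 1.11 and 1.12. The H4 gene Hist1h4i (chr13:22040636-22041362, minus strand) had 4.01, 4.76, 3.17 and 3.35 CPM without glutamine, against 3.61, 4.06, 3.10 and 2.97 CPM with glutamine, and the groups overlapped.

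**Figure D2:**
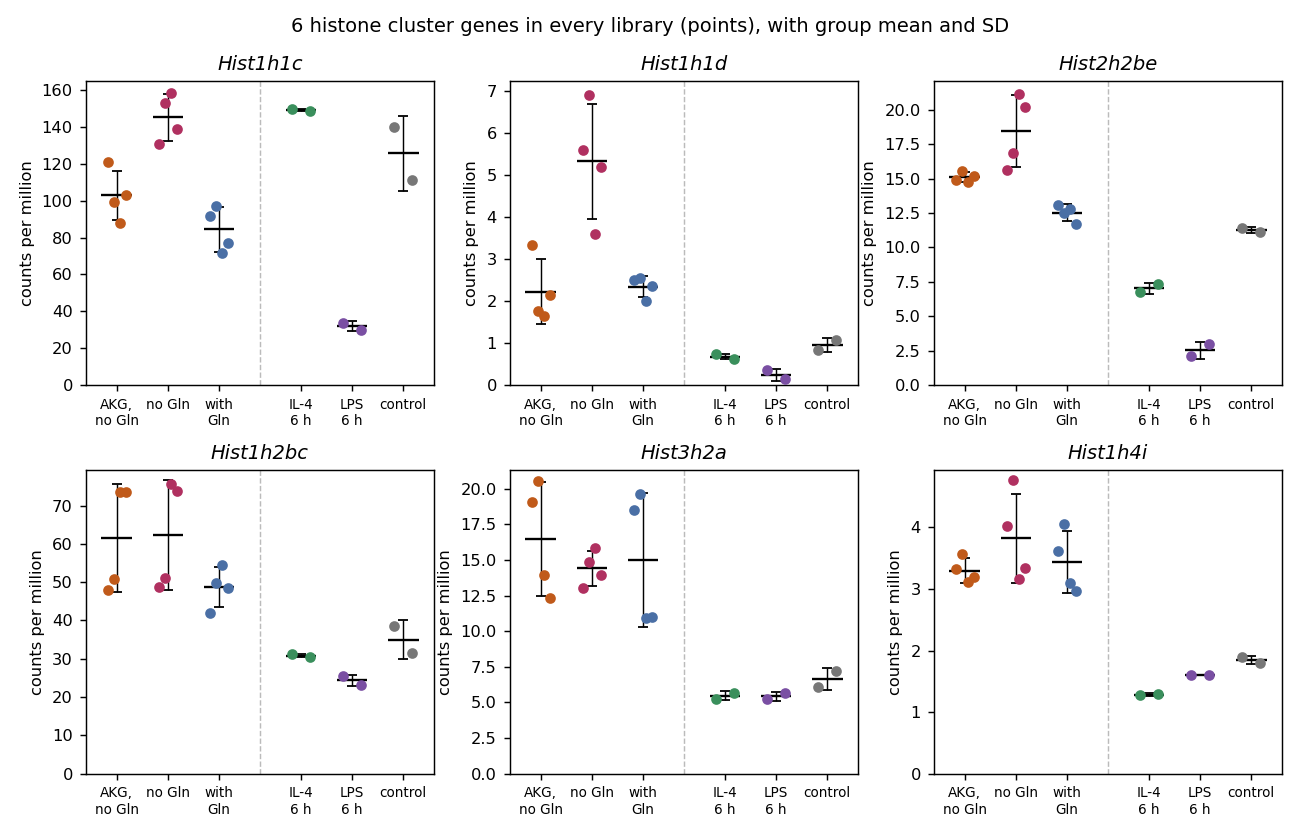
CPM of Hist1h1c, Hist1h1d, Hist2h2be, Hist1h2bc, Hist3h2a and Hist1h4i in every library of the 6 groups. Points are libraries, horizontal lines group means and bars SD (4 libraries in each tolerant group, 2 in each stimulation group). Hist1h1c lies between 131 and 158 CPM without glutamine and at 33.7 and 30.1 CPM after LPS.

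Hist3h2a moved in opposite directions in the replicate pairs. It had 13.0, 14.8, 15.8 and 13.9 CPM without glutamine, against 18.5, 19.6, 10.9 and 11 CPM with glutamine. In replicates 1 and 2 the libraries without glutamine were the lower ones (log2 difference -0.45), and in replicates 3 and 4 they were the higher ones (0.45). The difference between these effects was 0.90 (SE 0.15, edgeR adjusted p = 0.019). Hist3h2a was the 1 member called in this test of 14, against 2.47% of all genes. The split of replicates 1 and 2 from 3 and 4 was known from earlier results of these data and not from the labels. The p-value is therefore not an independent test of that split. Hist3h2a (chr11:58954685-58956830, plus strand) overlaps Trim17 on its own strand, and counts there may belong to either gene.

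Genes of mitosis moved the other way in the same libraries, and S phase genes did so only in part. Over all genes, 4.78% were called in either direction, or 21.8% with the block. Of 15 G2 and mitosis genes, 12 fell and none rose without glutamine, and all 15 were lower with the block, with a median log2 fold change of -1.58. Their summed level was 42.8 to 75 CPM without glutamine, against 122 to 250 CPM with glutamine. Examples are Plk1, a mitotic kinase (log2 fold change -3.07, adjusted p = 0.0076), and Top2a, which untangles chromosomes (-1.96, adjusted p = 0.0082). Of 23 S phase and replication genes, 6 fell (10 with the block) and 1 rose, with a median of -0.40. Their summed levels overlapped, at 406 to 511 CPM without glutamine against 412 to 587 CPM with glutamine. In replicates 1 and 2 the sums were 422 and 406 CPM without glutamine, against 429 and 412 CPM with glutamine. Rrm2, a subunit of ribonucleotide reductase, fell by 3.01 on the log2 scale (adjusted p = 0.013). The gene that rose, Cdt1, which licenses replication origins, had a log2 fold change of 0.47 (adjusted p = 0.047) and was named after its values were seen. The median of the mitotic list was -0.89 in replicates 1 and 2 and -2.30 in replicates 3 and 4.

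Among 11 replacement histones, which are made outside S phase as well, H1f0 rose and H2afz fell without glutamine. H1f0, a linker histone that accumulates in cells that have stopped dividing, averaged 91.3 CPM without glutamine against 49.0 CPM with glutamine (log2 fold change 0.90, SE 0.14, adjusted p = 0.0076). H2afz, which codes for H2A.Z, had a log2 fold change of -0.26 (adjusted p = 0.035). With the block Cenpa, the centromeric H3, was lower too (adjusted p = 0.00065, against 0.12 without it). None of 12 factors of histone mRNA transcription, 3′ processing and decay was called, with or without the block, and none of 8 histone chaperones was called without it (2 lower with it). Stromal fibroblast markers moved as well: 7 of 9 fell without glutamine (all 9 with the block), with a summed level of 53.4 to 252 CPM without glutamine, against 483 to 2599 CPM with glutamine and no marker at 0. Of 8 neutrophil and progenitor markers, 2 had enough counts for a test and neither was called; their sum was 2.24 to 7.19 CPM without glutamine, against 3.99 to 6.16 CPM with glutamine, and Elane was at 0 without glutamine. None of 9 macrophage markers was called without the block, and Fcgr1 was lower with it (adjusted p = 0.024). Their sum was 30613 to 44252 CPM without glutamine, against 34196 to 42402 CPM with glutamine. The part of the changed dividing and stromal signal in the histone values was not tested.

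**Figure D3:**
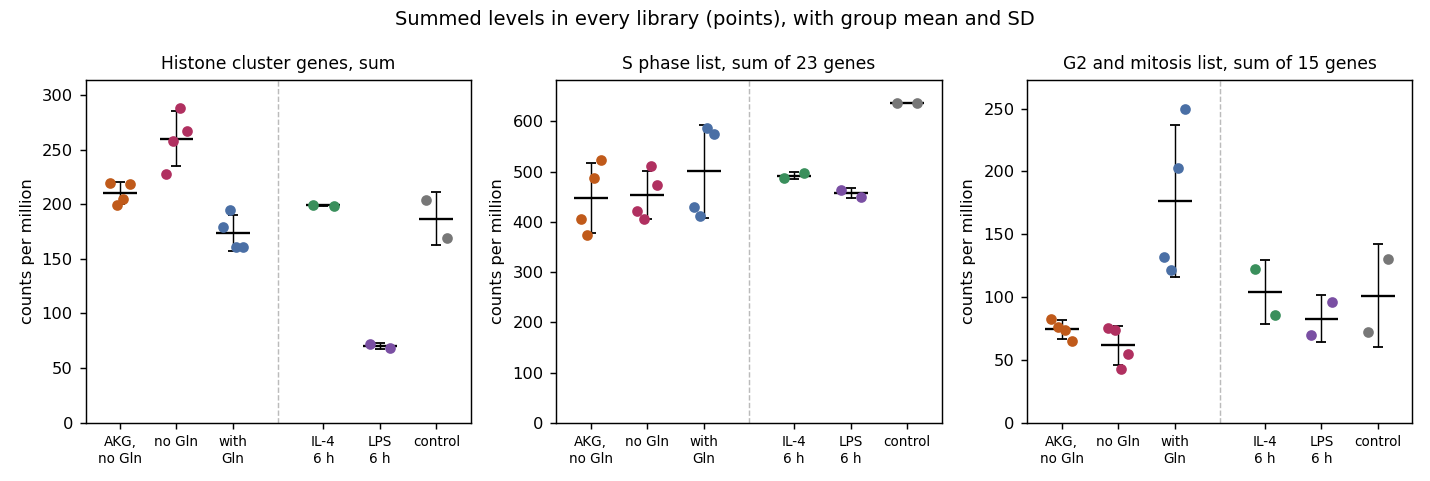
Summed CPM in every library of the histone cluster members, of 23 S phase and replication genes and of 15 G2 and mitosis genes. Points are libraries, lines group means and bars SD. Without glutamine the histone sum lies at 228 to 288 CPM and the mitotic sum at 42.8 to 75 CPM, against 160.5 to 195 CPM and 122 to 250 CPM with glutamine.

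With AKG added in the absence of glutamine, histone cluster RNA was lower than without glutamine alone. The members summed to 219, 199, 205 and 219 CPM with AKG, against 228, 257, 288 and 267 CPM without glutamine alone, a ratio of means of 0.81. All 4 libraries with AKG lay below the 4 without it, but without Hist1h1c the sums overlapped, at 98.3 to 117 CPM with AKG against 97.0 to 129 CPM without glutamine alone. In 3 members (21.4%) the groups did not overlap, against 9.1% of all genes. Hist1h1d was called lower and no member was called higher. That 1 member is 7.14% of the 14 tested, against 0.849% of all genes called lower and 1.54% called in either direction. Of the 14 members, 11 had a negative log2 fold change, with a median of -0.27, against 0.01 over all genes. With the block 2 members were lower (14.3%), against 7.07% of all genes lower and 15.6% in either direction, so that count was near its background. Scaled by library totals alone, 34.2% of the 260 genes called were higher, against 44.8% of 192 with TMM.

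Hist1h1d had 3.33, 1.75, 1.65 and 2.14 CPM with AKG, against 5.59, 6.89, 3.59 and 5.19 CPM without glutamine alone. The groups did not overlap, though replicate 1 with AKG lay close to replicate 3 without it. The log2 fold change was -1.26 (SE 0.25, adjusted p = 0.035), and over the fits that left out 1 library it lay between -1.52 and -1.11 with adjusted p between 0.018 and 0.12. The call ended without replicate 1 (0.081), 2 (0.12) or 4 (0.075) of the group without glutamine alone, without replicate 2 (0.12), 3 (0.097) or 4 (0.092) with AKG, with these groups fitted alone (0.10) and without the filter on low counts (0.052). Hist1h1c had 121, 99.2, 88.1 and 103 CPM with AKG, against 131, 153, 158 and 139 CPM without glutamine alone. Every library with AKG was below every library without it. The log2 fold change was -0.50 (SE 0.12) with an adjusted p of 0.073, which became 0.018 with the block and 0.0076 in DESeq2. Hist2h2be had 14.9, 15.6, 14.8 and 15.2 CPM with AKG, against 15.6, 16.9, 21.1 and 20.2 CPM without glutamine alone, a log2 change of -0.29 (adjusted p = 0.20). Hist1h2bc had 48.0, 50.9, 73.5 and 73.6 CPM with AKG, close to the libraries of the same number without glutamine alone. Hist3h2a had 19.1, 20.6, 13.9 and 12.3 CPM with AKG and was not called. Hist1h4i had 3.33, 3.56, 3.11 and 3.19 CPM with AKG, against 4.01, 4.76, 3.17 and 3.35 CPM without glutamine alone, and was not called either.

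The division genes were not called in this comparison. None of the 15 mitotic and none of the 23 S phase genes passed, with or without the block apart from 1 S phase gene that was lower with it, and the mitotic sum was 64.7 to 82.8 CPM with AKG, against 42.8 to 75 CPM without glutamine alone. The stromal sum was 126 to 497 CPM with AKG, against 53.4 to 252 CPM without glutamine alone, with none of 9 markers called without the block and all 9 higher with it. None of the replacement histones, processing factors, chaperones, neutrophil markers or macrophage markers was called without the block. With it 1 replacement histone (H2afx), 1 processing factor (Lsm11) and 1 neutrophil marker (S100a8) were lower and 2 macrophage markers (Itgam and Fcgr1) higher with AKG. The part of the stromal signal in the histone values was not tested.

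Against tolerant macrophages with glutamine, those with AKG and no glutamine had a higher summed histone level, below that without glutamine alone. Mean levels of Hist1h1c and Hist2h2be lay in between as well, but not those of every member. Hist1h1d averaged 2.22 CPM with AKG, against 2.34 CPM with glutamine and 5.32 CPM without glutamine alone. Hist3h2a averaged 16.46 CPM with AKG, against 14.99 and 14.4 CPM in the same order, with overlapping libraries. The members summed to 219, 199, 205 and 219 CPM with AKG, against 179, 195, 161 and 160.5 CPM with glutamine, a ratio of means of 1.21, without overlap. No member was called by edgeR, DESeq2 or limma-voom, nor with the block, and 3 had an unadjusted p under 0.05. Without the block the background was the same, with 0% of all genes called, but with the block 7.08% of all genes were called. In 2 members (14.3%) the groups did not overlap, against 5.56% of all genes. Hist1h1c had 121, 99.2, 88.1 and 103 CPM with AKG, against 91.9, 97.4, 71.4 and 76.8 CPM with glutamine (log2 fold change 0.29, adjusted p = 0.60). Its groups overlapped, since replicate 3 with AKG lay below replicates 1 and 2 with glutamine. Hist1h1d had 3.33, 1.75, 1.65 and 2.14 CPM with AKG, against 2.49, 2.54, 1.99 and 2.35 CPM with glutamine, and overlapped too. Hist2h2be stood at 14.8 to 15.6 CPM with AKG, against 11.7 to 13.1 CPM with glutamine, without overlap and with a log2 change of 0.27 (adjusted p = 0.45). With the block, 11 of 15 mitotic, 7 of 23 S phase and 9 of 9 stromal genes were lower with AKG, and none of these was called without it. H1f0 and Fcgr1 were higher and Cenpa, Asf1b and S100a8 lower with AKG, again with the block only. The summed levels were 64.7 to 82.8 CPM for the mitotic genes and 126 to 497 CPM for the stromal markers with AKG, against 122 to 250 CPM and 483 to 2599 CPM with glutamine, and their part in the histone values was not tested. The 3 tolerant comparisons share their libraries, so their values are not independent of each other.

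LPS for 6 h left the macrophages with far less linker histone RNA. The 19 members summed to 72.0 and 68.2 CPM after LPS, against 204 and 169 CPM in controls, a ratio of means of 0.38. Without Hist1h1c they summed to 38.3 and 38.2 CPM after LPS, against 63.9 and 58.0 CPM in controls, a ratio of 0.627. Hist1h1c, Hist1h1d, Hist2h2be and Hist1h2bc fell, and no member rose. These 4 are 30.8% of the 13 members tested, against 29.4% of the 12506 genes called lower and 52.3% called in either direction. The count of members was thus near the background of this comparison, and so was the share of members whose groups did not overlap, 9 of 13 (69.2%) against 74.5%. The median log2 fold change of the members was -0.51, against -0.10 over all genes, and 11 of 13 were negative. LPS libraries had low TMM factors: scaled by library totals alone, the median of all genes moved to -0.55 and that of the members to -0.96, with 8 members lower, and 20.0% of the 8053 genes called were higher, against 43.7% of 6536 with TMM. With DESeq2's size factors in edgeR the all-gene median was 0.00163 and 3 members were lower.

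Hist1h1c had 33.7 and 30.1 CPM after LPS, against 140.1 and 111 CPM in controls. The LPS libraries were far below both controls, and the log2 fold change was -1.98 (SE 0.15, adjusted p = 0.00021). Hist1h1d had 0.348 and 0.140 CPM after LPS, from 10 and 4 counts, against 0.840 and 1.08 CPM in controls, a log2 change of -1.96 (SE 0.41, adjusted p = 0.0095). Hist2h2be had 2.09 and 2.97 CPM after LPS, against 11.4 and 11.1 CPM in controls. It showed the largest change of the members tested here, with a log2 change of -2.15 (SE 0.19, adjusted p = 0.00037). Hist1h2bc had 25.4 and 23.3 CPM after LPS, against 38.6 and 31.4 CPM in controls. Its smaller change of -0.52 (SE 0.13, adjusted p = 0.019) was lost without control replicate 1 (adjusted p = 0.11), LPS replicate 1 (0.064) or LPS replicate 2 (0.11), with DESeq2's size factors (0.059) and in DESeq2 (0.056).

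The remaining abundant members were lower after LPS but were not called. Hist3h2a had 5.22 and 5.66 CPM after LPS, against 6.07 and 7.18 CPM in controls. Hist1h4i had 1.60 and 1.61 CPM after LPS, against 1.90 and 1.81 CPM in controls. Hist1h2bg had 1.01 and 1.5 CPM after LPS, against 1.61 and 1.97 CPM in controls. None of these 3 was called, with log2 fold changes of -0.28, -0.21 and -0.51, and the LPS libraries were below the controls in each. The change of Hist1h2bg was close to that of Hist1h2bc (-0.52), with an SE of 0.25 against 0.13. The positive log2 fold changes were those of Hist1h2ac (0.55) and Hist2h3c2 (0.33), both named after their values were seen, and neither was called. As a result the make-up of the histone RNA differed: H1 genes took 45.8% of member counts after LPS against 67.8% in controls, and H2B genes 41.0% against 26.2% (means of 2 libraries).

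**Figure D4:**
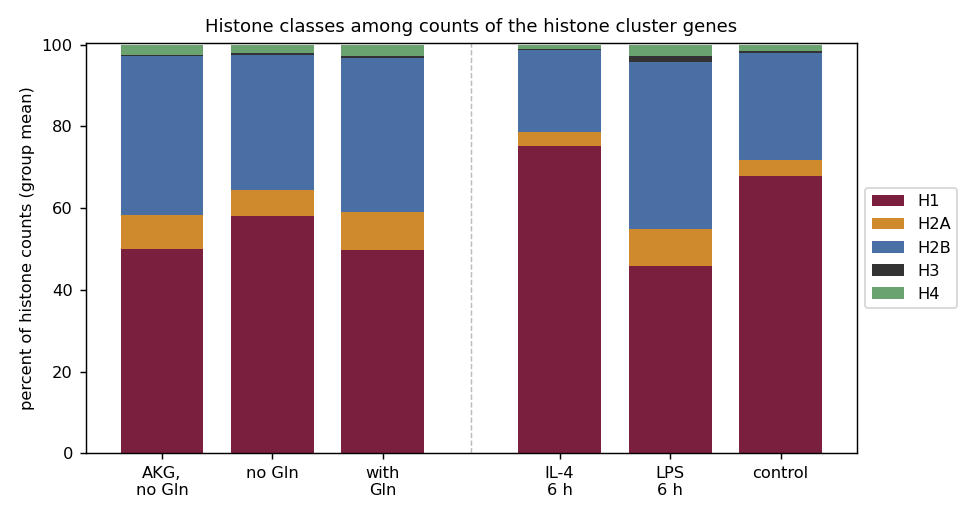
Share of member counts taken by H1, H2A, H2B, H3 and H4 genes, as stacked percentages that are means over the libraries of each group. H1 genes take 58.2% without glutamine against 49.8% with glutamine, and 45.8% after LPS against 67.8% in controls.

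Other histone and division genes also changed with LPS. Their counts stand against a background of 52.3% of all genes called in either direction and 29.4% called lower. Of 11 replacement histones 4 rose and 3 fell; H3f3b, an H3.3 gene, rose (log2 fold change 1.59, adjusted p = 0.00016), and H1f0 fell (-1.39, adjusted p = 0.0003), with 38.4 CPM after LPS against 100.4 CPM in controls. Cenpa fell by 2.53 and H2afv, another H2A.Z gene, by 2.21 on the log2 scale. Of 23 S phase genes 12 fell, among them the replicative helicase subunits Mcm2 (-2.22) and Mcm7 (-2.13), and 1 rose. Of 15 mitotic genes 9 fell, among them Aurkb (-2.15) and Cdk1 (-1.84), and 1 rose; their summed level was 69.7 to 96.0 CPM after LPS, against 72.2 to 130.1 CPM in controls. The genes that rose, Ccne1 (0.66) and Tpx2 (0.50), were named after their values were seen. Of 12 processing factors 4 rose and 2 fell, with Cstf2, a cleavage factor subunit, at 0.92 and Zfp473, a zinc finger protein of the histone pre-mRNA cleavage machinery, at -1.77. Of 8 chaperones 4 fell and 1 rose, with Chaf1a, the large subunit of the replication-coupled assembly factor CAF-1, at -1.53.

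RNAs without a usual tail were lower after LPS where called. Rn7sk had 3 and 1 counts after LPS, against 160 and 144 counts in controls (adjusted p = 0.00011), and Rpph1, the RNA of RNase P, had 3 and 4 counts after LPS, against 19 and 24 counts in controls (adjusted p = 0.0055). Malat1 (log2 fold change -0.38, adjusted p = 0.47) and Neat1 (-0.49, adjusted p = 0.17) were not called. Stromal markers were at similar sums, 141 to 163 CPM after LPS against 159 to 164 CPM in controls, with 1 of 9 higher and 1 lower and none at 0. Of 4 neutrophil markers tested, S100a8 and Camp rose, and the sum of all 8 was 14.3 to 18.9 CPM after LPS, against 3.75 to 4.44 CPM in controls, with none at 0. Among 9 macrophage markers 5 rose and 1 fell, with sums of 36240 to 38202 CPM after LPS, against 34814 to 38772 CPM in controls. The part of these signals in the histone values was not tested.

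After IL-4 for 6 h few histone genes differed from controls. The members summed to 199 CPM in both IL-4 libraries, against 204 and 169 CPM in controls, a ratio of means of 1.07. Without Hist1h1c the ratio was 0.818, with 49.6 and 50.1 CPM after IL-4, against 63.9 and 58.0 CPM in controls, so the direction of the sum turns on that gene. Hist2h2be was the 1 member called and was lower. That is 7.69% of 13 members, against 10.5% of all genes called lower and 20.1% in either direction. It had 6.75 and 7.33 CPM after IL-4, against 11.4 and 11.1 CPM in controls, with a log2 change of -0.68 (SE 0.17, adjusted p = 0.045). The call did not hold without any 1 of the 4 libraries, with adjusted p between 0.066 and 0.25. Hist1h1c had 149 CPM in both IL-4 libraries, against 140.1 and 111 CPM in controls, a log2 change of 0.25 (adjusted p = 0.30). Without control replicate 1 it was 0.50 (adjusted p = 0.049), so 1 control library decides that value. Hist1h2bc had 31.2 and 30.5 CPM after IL-4, against 38.6 and 31.4 CPM in controls, and Hist1h1d had 0.726 and 0.628 CPM after IL-4, against 0.840 and 1.08 CPM in controls. Hist1h4i had 1.27 and 1.3 CPM after IL-4, against 1.90 and 1.81 CPM in controls (log2 fold change -0.52, adjusted p = 0.072). Groups did not overlap in 7 members (53.8%), against 58.3% of all genes. Of the 13 members 9 were negative, with a median of -0.20, against -0.04 over all genes.

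**Figure D5:**
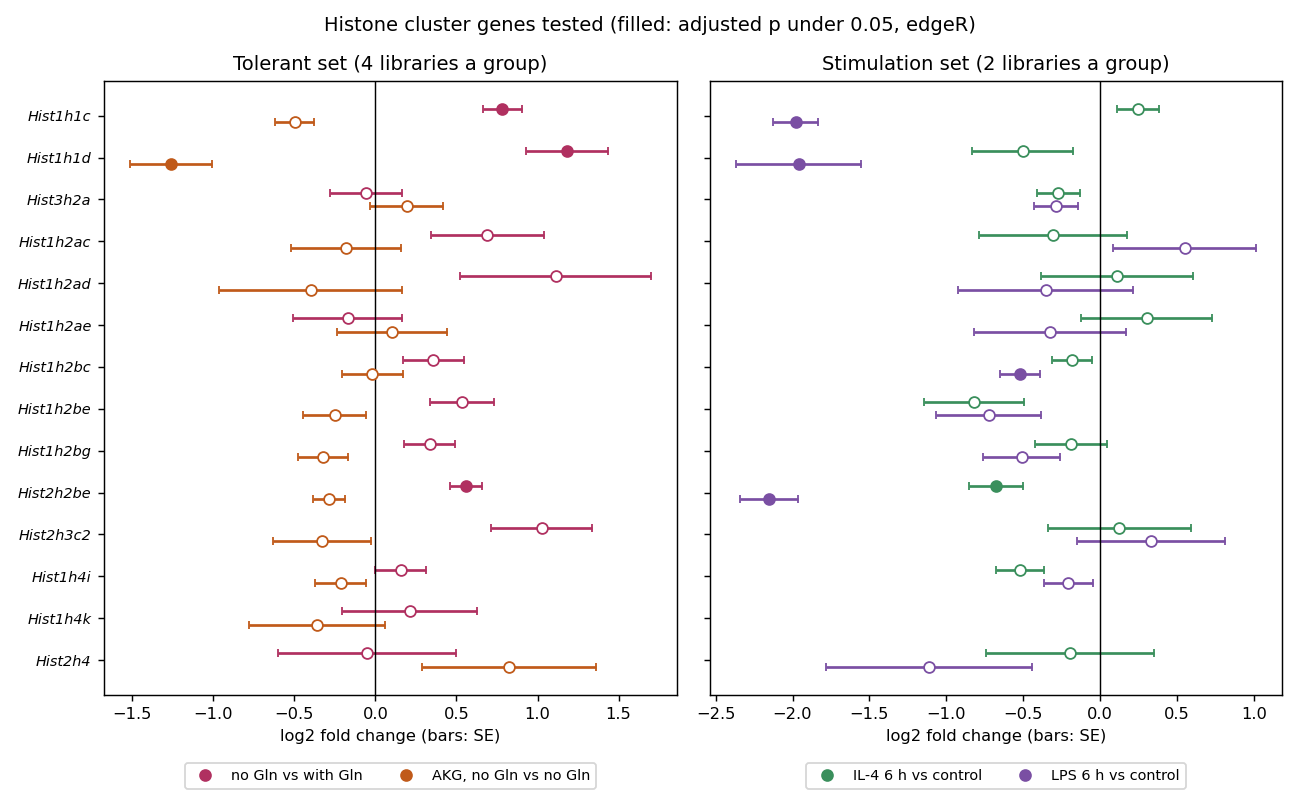
Log2 fold changes of the members tested, with SE bars; filled symbols have an edgeR adjusted p under 0.05. The left panel gives the comparison without against with glutamine and the comparison of AKG against no glutamine alone, and the right panel IL-4 and LPS against controls. Hist1h1d lies at 1.18 and -1.26 in the left panel, and Hist2h2be at -0.68 and -2.15 in the right panel.

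Few division genes were called after IL-4, where 10.5% of all genes were called lower and 20.1% in either direction. Of 23 S phase genes 3 fell, led by Pcna, the sliding clamp (-0.62, adjusted p = 0.0063), and the list summed to 487 to 497 CPM after IL-4, against 637 CPM in both controls. Of 15 mitotic genes Plk1 fell (-1.01, adjusted p = 0.017), with list sums of 86.1 to 122 CPM after IL-4, against 72.2 to 130.1 CPM in controls. Among the replacement histones H2afy, which codes for macroH2A, rose (0.51) and H2afz fell (-0.51), each of 11 tested. Of 12 processing factors Cstf2 and Mif4gd, an SLBP partner, fell, and of 8 chaperones Chaf1b fell. Rn7sk fell as well (-0.85, adjusted p = 0.034), the 1 of 4 RNAs without a usual tail that was called. Of 9 macrophage markers 3 fell, of 9 stromal markers 2 fell and of 4 neutrophil markers 1 fell; the sums were 27085 to 29240, 111 to 121 and 2.46 to 2.51 CPM after IL-4, against 34814 to 38772, 159 to 164 and 3.75 to 4.44 CPM in controls. The part of these signals in the histone values was not tested.

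Set directly against each other, IL-4 macrophages held more linker histone RNA than LPS macrophages. The members summed to 199 CPM in both IL-4 libraries, against 72.0 and 68.2 CPM after LPS, a ratio of means of 2.84. Without Hist1h1c it was 1.3, with 49.6 and 50.1 CPM after IL-4, against 38.3 and 38.2 CPM after LPS. Hist1h1c was higher with IL-4 by 2.23 on the log2 scale (SE 0.15, adjusted p = 0.00012), Hist2h2be by 1.48 (SE 0.19, adjusted p = 0.0014) and Hist1h1d by 1.46 (SE 0.43, adjusted p = 0.031). These 3 are 23.1% of 13 members, against 29.7% of all genes called higher and 53.1% in either direction, so the count was not above its background, nor were the 8 members (61.5%) whose groups did not overlap, against 80.3%. Scaled by library totals alone, the all-gene median was 0.58 and 6 members were higher, and 79.6% of the 8305 genes called were higher, against 55.9% of 6645 with TMM. The call on Hist1h1d ended in DESeq2 (adjusted p = 0.069) and without LPS replicate 2 (log2 fold change 0.95, adjusted p = 0.12). Hist3h2a, with 5.27 and 5.69 CPM after IL-4 against 5.22 and 5.66 CPM after LPS, did not differ beyond its spread. H1f0 was also higher with IL-4 (log2 fold change 1.35, adjusted p = 0.00029), and of 23 S phase genes 10 were higher and 3 lower. The IL-4 and LPS comparisons share the control libraries, so the direct comparison is the test of their difference.

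Across the tolerant groups, Hist1h1c averaged 103 ± 13.5 CPM with AKG, 145 ± 12.7 CPM without glutamine alone and 84.4 ± 12.3 CPM with glutamine (SD, n = 4 each). In the stimulation table it averaged 149 CPM after IL-4, 31.9 CPM after LPS and 126 CPM in controls (means of 2 libraries). The H4 members together averaged 5.03 ± 0.61, 5.50 ± 1.13 and 4.83 ± 0.97 CPM in the same 3 tolerant groups (SD, n = 4 each), within the spread of their libraries. The tables were scaled separately, so levels are not compared between them.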

How the data were processed

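Gene counts were deposited by the authors in 2 tables, of 12 tolerant and 6 stimulation libraries, with 23052 symbols each. Per the submitters' processing notes, STAR, HTSeq and mm10 were used, with versions not given in the sources used here. Counting parameters, including strand, are not given there either, so reads of overlapping and near-identical histone genes could be split or lost. No column of another sample was present (0 columns).

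Each table was analysed whole in R 4.3.3. edgeR 4.0.16 (filterByExpr with a minimum count of 10 and a minimum total of 15, TMM, quasi-likelihood test) fitted all groups of a table together, with Benjamini-Hochberg adjustment over 12492 tolerant and 12506 stimulation genes. CPM were computed from the deposited counts with TMM. Same-numbered tolerant libraries deviated together (12 correlations of 0.429 to 0.848 from group means), while differently numbered ones ranged from -0.868 to 0.857, so a number and the split of replicates 1 and 2 from 3 and 4 cannot be told apart. Tolerant values with the replicate number as a block are given where they change a call. The origin of the numbers is not in the labels. In the stimulation table the 6 correlations ranged from -0.781 to 0.665. With 2 libraries in a group the deviations mirror each other, so these 6 values are not independent. Since their signs differ, the numbers there are not taken to pair libraries. The block of that table is given only with the processing alternatives. Replicates of a group differed beyond sampling noise (chi-square per degree of freedom 8.06 or more). Alternatives were DESeq2 1.42.0, limma-voom (limma 3.58.1), other scaling and filters, the compared groups fitted alone and each library left out. The scripts were tested on simulated data. Gene models came from GENCODE vM21 and promoters from RefSeq; figures used matplotlib 3.10.9 in Python 3.11.15.

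Members and gene lists were chosen with earlier results of these data known. Per-library values are given for members called in a comparison and for the 6 most abundant members of each table, and other genes only from lists of histone, division and cell type genes, at most 4 of a list per comparison.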

Additional observations from a re-analysis of the deposited data

Results flagged for a closer look

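Among 45 groups of 4 tolerant libraries, each being 1 of 3 groups in 1 of 15 measures, 5 held a library far from the other 3; chance alone gives about 1 in 20 such groups. The H2B gene Hist1h2bg had 2.27 CPM in replicate 3 with glutamine, against 3.12 to 3.24 CPM in the others of that group. Hist2h3c2, the H3 member, had 0.387 CPM in replicate 4 with glutamine against 0.600 to 0.636 CPM, and 0.453 CPM in replicate 2 with AKG against 1.02 to 1.08 CPM. The H4 gene Hist1h4k had 0.229 CPM in replicate 3 without glutamine alone against 0.629 to 0.683 CPM, and 0.758 CPM in replicate 3 with AKG against 0.290 to 0.332 CPM. For Hist3h2a the effect of lacking glutamine differed between replicates 3 and 4 and replicates 1 and 2 by 0.90 on the log2 scale.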

How the results depend on the processing

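The replicate block raised the members called without against with glutamine to 7 and those with AKG against no glutamine alone to 2, and took those of IL-4 against control to 0 (Hist2h2be, adjusted p = 0.068) and of IL-4 against LPS to 2 (Hist1h1d, adjusted p = 0.058); the pairing of replicates 1 and 2 and of 3 and 4 as a factor gave 7 and 3. For IL-4 against control the block gave 0 calls among replacement histones (2 without it), processing factors (2), chaperones (1) and RNAs without a usual tail (1), 1 among S phase genes (3) and 1 among stromal markers (2), although libraries there share only a number. In the comparison of AKG against no glutamine alone, 0 members were called without the filter on low counts and 0 with these groups alone, 2 in DESeq2 and 2 by library totals without TMM, an alternative chosen after seeing the data. Without the filter 0 members were called for IL-4 against control. Library totals gave 0 members for IL-4 against control, 8 for LPS against control and 6 for IL-4 against LPS. Summed CPM ratios without Hist1h1c were 1.28 (no glutamine against glutamine), 0.938 (AKG against no glutamine alone), 0.818 (IL-4 against control), 0.627 (LPS against control) and 1.3 (IL-4 against LPS). The ratio for no glutamine against glutamine was 1.73 within replicates 3 and 4 and 1.3 within replicates 1 and 2. By library totals it was 0.274 for LPS against control and 3.96 for IL-4 against LPS, the second being 2.68 with DESeq2's size factors. The cause of these shifts was not tested. Directions that turned were all uncalled: Hist3h2a without against with glutamine (0.004622 in limma-voom, 0.001067 with the factor), Hist3h2a in IL-4 against LPS (-0.07121, -0.0709 and -0.001536 with DESeq2's size factors, in DESeq2 and with these groups alone) and Hist1h4i in IL-4 against LPS (0.1608 by library totals).

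With each library left out in turn, members called ranged from 2 to 3 without against with glutamine, 0 to 1 for AKG against no glutamine alone, 0 to 0 for AKG against glutamine, 0 to 1 for IL-4, 3 to 4 for LPS and 2 to 3 for IL-4 against LPS. The summed CPM ratios ranged over 1.44 to 1.56, 0.777 to 0.84, 1.18 to 1.26, 0.975 to 1.17, 0.344 to 0.414 and 2.76 to 2.92 in the same order of comparisons. The log2 fold changes that turned were uncalled: Hist3h2a from -0.18 to 0.10 without against with glutamine, Hist1h2bc from -0.12 to 0.08771 and Hist1h2ad from -0.67 to 0.0231 for AKG against no glutamine alone, Hist1h4i from -0.12 to 0.03349 and Hist1h1d from -0.34 to 0.05324 for AKG against glutamine, Hist1h2bc from -0.33 to 0.05618 for IL-4 against control and Hist3h2a from -0.04731 to 0.06744 for IL-4 against LPS. In the stimulation table a left-out library leaves 1 in its group, which is then assumed to vary like the others. Over the named members, other alternatives kept direction and call status in 341 cases, many of them uncalled throughout. They lost a call in 10 cases, added a call in 19 and turned the direction in 6. Left-out libraries turned the direction in 13 cases. Members left out by the low-count filter were tested in the fits without it, which called 3, 0, 0, 0, 4 and 3 members in the same order of comparisons.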
